A study of Mus musculus with 18 samples.

Results

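The genes of cholesterol synthesis, intracellular transport, storage and efflux were followed in whole lungs of fetal BALB/c mice. The set held 29 genes, namely 19 synthesis enzymes, 4 genes that control the SREBP transcription factors, 4 genes of transport and storage, and 2 efflux pumps. Each gene was represented by the probe set with the highest mean signal over all 18 arrays. In this way 27 of the 29 genes had a value, out of 18193 genes with a probe set of their own and 45037 probe sets in all. Acat2, which makes acetoacetyl-CoA, and Soat1, which esterifies cholesterol for storage, had no probe set assigned to them alone and were not analysed here. The study asked which lung genes differ with fetal sex and with androgen blockade around the surge of surfactant production. The 6 groups were lungs of males whose dams received the antiandrogen flutamide, harvested at gestational day 18 (18 flut), vehicle males at GD18 (18 m), vehicle females at GD18 (18 f), and the same 3 groups harvested at GD17 (17 flut, 17 m, 17 f). Flutamide was injected under the skin of the pregnant dam at 1 mg per day from GD10 until the day before harvest, and the dams of the m and f groups received the vehicle on the same schedule. No female fetuses exposed to flutamide were measured. Each of the 3 arrays in a group was hybridised with RNA pooled from 3 fetuses of 1 sex taken from different litters, so n is the number of pools. Signals are given on the log2 scale, and a difference of 1 is a doubling.

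Cholesterol is built from acetyl-CoA through mevalonate. Early enzymes make the isoprenoid units, which also feed other lipids, squalene synthase commits them to sterols, and a chain of sterol enzymes turns lanosterol into cholesterol. When sterols in the endoplasmic reticulum are scarce, the escort protein SCAP carries the SREBP factors to the Golgi, where they are cleaved and released to switch on the whole chain, while the INSIG proteins hold SCAP back when sterols are plentiful. When sterols are plentiful, the LXR receptors switch on the efflux pumps Abca1 and Abcg1. In the lung, cholesterol is a component of surfactant, which epithelial type II cells store in lamellar bodies and release near birth, and alveolar macrophages also handle surfactant lipid.

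The promoters of 4 genes are shown. Idi1 and Hmgcs1 are the enzymes that differed between the sexes at GD18, and Cyp51 was lower and Abca1 higher at GD18 in all 3 groups of fetuses. Each is the 250 bases before a start listed for the gene in the RefSeq annotation of build GRCm38.p6. The bases are given on the gene's own strand, 5′ to 3′. For Abca1 this start lies inside the annotated gene (chr4:53030789-53159988), so its window overlaps the gene. Capitals mark matches to CCAAT, read as ATTGG on the opposite strand, and to TCACNCCAC, the core of the sterol response element known from SREBP target genes. Both motifs were searched on both strands, and they share no letters in these windows.
Hmgcs1 (chr13:119690101-119690350, + strand): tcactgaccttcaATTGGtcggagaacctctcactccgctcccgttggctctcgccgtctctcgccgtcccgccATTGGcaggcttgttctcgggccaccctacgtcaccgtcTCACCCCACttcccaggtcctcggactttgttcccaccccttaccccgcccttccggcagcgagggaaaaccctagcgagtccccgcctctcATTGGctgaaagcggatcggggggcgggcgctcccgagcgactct
Idi1 (chr13:8885356-8885605, + strand): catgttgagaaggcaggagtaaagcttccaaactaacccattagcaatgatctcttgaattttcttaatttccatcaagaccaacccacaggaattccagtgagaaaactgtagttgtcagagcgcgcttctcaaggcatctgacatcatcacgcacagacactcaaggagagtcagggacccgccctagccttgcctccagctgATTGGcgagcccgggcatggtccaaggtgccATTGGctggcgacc
Cyp51 (chr5:4104698-4104947, - strand): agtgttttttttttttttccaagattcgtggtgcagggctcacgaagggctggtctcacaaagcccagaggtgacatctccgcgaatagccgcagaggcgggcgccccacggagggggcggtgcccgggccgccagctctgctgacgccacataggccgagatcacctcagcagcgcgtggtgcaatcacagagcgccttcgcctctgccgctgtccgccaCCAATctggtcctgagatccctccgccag
Abca1 (chr4:53159896-53160145, - strand): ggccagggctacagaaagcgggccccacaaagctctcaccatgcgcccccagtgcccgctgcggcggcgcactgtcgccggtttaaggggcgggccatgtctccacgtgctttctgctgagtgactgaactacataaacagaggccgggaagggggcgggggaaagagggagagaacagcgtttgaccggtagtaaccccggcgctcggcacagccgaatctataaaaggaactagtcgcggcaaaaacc

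In Hmgcs1 the TCACNCCAC match began 137 bases upstream of the start. It was the only one among the 23 genes of the set counted here, each with a promoter entry. Npc1 and Stard4, on chromosome 18, were left out of the counts for the set. TCACNCCAC occurred in 1.22% of the 27025 genes that had an entry, and in 1.05% of all 32851 promoter windows. A CCAAT match was present upstream of all 15 measured synthesis enzymes with an entry and of 5 of the 7 other genes counted. The share was 37.5% of the 27025 genes that had an entry. Idi1 held a pair of such matches, 45 and 14 bases upstream, Cyp51 held 1 at 29 bases, and Abca1 held neither motif. A match of letters is a description of the sequence and not evidence that a factor was bound.

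Several pools stood apart in ways that touch the results. All 8 measured exocrine pancreas markers were higher in pools 2 and 3 of 17 f and pool 3 of 17 m than in every other pool, with mean signals of 10.19, 10.11 and 9.59 against 5.63 to 6.08 in the other 15 pools. The liver marker mean ranged from 6.83 to 12.64 and was highest in 18 m pool 3, which was also the highest pool for each of the 9 liver markers. The adrenal cortex marker mean was highest in 18 flut pool 2, at 7.37, and 3 of the 4 markers were highest there. The other, Cyp11a1, was at 5.32 in that pool and 4.95 to 5.66 over all pools. The adrenal mean was also raised in 17 f pools 2 and 3 (6.05 and 6.21) and in 18 m pool 3 (6.08). It was 5.25 to 5.52 in the remaining pools. Hsd3b1 was at 7.49, 7.94 and 8.92 in 17 f pools 2 and 3 and 18 m pool 3. In 18 flut pool 3 the female-specific transcript Xist was at 11.95 while the Y-linked Eif2s3y was at 7.21, so the library labelled as flutamide-treated males carried RNA of both sexes. The other pools fitted their labelled sex, with Eif2s3y between 7.91 and 8.84 in the male pools and between 3.09 and 3.64 in the female pools. The means of the lung epithelial and mesenchymal markers were high in every group, at 10.30 to 10.84 and 10.44 to 10.63. Among the epithelial markers Nkx2-1 was the exception, with pool signals of 5.77 to 6.63, near the array medians of 6.34 to 6.40. The epithelial mean was 10.56 to 10.94 in GD18 pools and 10.19 to 10.53 in GD17 pools, so that it was higher in every GD18 pool. Of its 4 markers, the surfactant genes Sftpb and Sftpc were higher in every GD18 pool than in every GD17 pool and Epcam was lower in every one. Since whole lungs were measured, fewer cells of a type and less RNA per cell cannot be told apart.

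Across the 6 groups the enzymes and the export genes ran in opposite directions with age. The mean signal over the 18 measured enzymes was 8.43, 8.60 and 8.58 in the 18 flut pools, 8.72, 8.64 and 8.59 in the 18 m pools, and 8.32, 8.49 and 8.36 in the 18 f pools. At GD17 it was 8.69, 8.72 and 8.73 in the 17 flut pools, 8.84, 8.84 and 8.92 in the 17 m pools, and 8.90, 9.09 and 9.14 in the 17 f pools. The 17 f group had the highest mean of the 6 groups for all 18 enzymes, and the 18 f group had the lowest for 15 of them. The 2 pools at the top, 17 f pools 2 and 3, were rich in pancreas markers and also raised in adrenal cortex markers. Over all 18 pools, the deviation of the enzyme mean from its group mean had a Pearson r of 0.61 with the same deviation of the pancreas marker mean, 0.37 with adrenal cortex, 0.24 with liver and 0.12 with macrophage markers. The pancreas mean had an SD of 2.17 in 17 m and 2.39 in 17 f, against 0.05 to 0.09 in the other groups. Its r was therefore set by the 17 m and 17 f pools, and the r values do not rank the tissues. The sterol reductase Tm7sf2 had signals of 8.27 in 18 flut pool 2, 8.32 in 18 m pool 3, 8.15 in 17 m pool 3 and 8.59 and 8.70 in 17 f pools 2 and 3, the 5 pools with the highest liver means, and 7.42 to 7.90 in the others. The part of pancreatic, hepatic or adrenal RNA in the enzyme levels was not tested beyond the alternatives given beside each comparison.

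**Figure D1:**
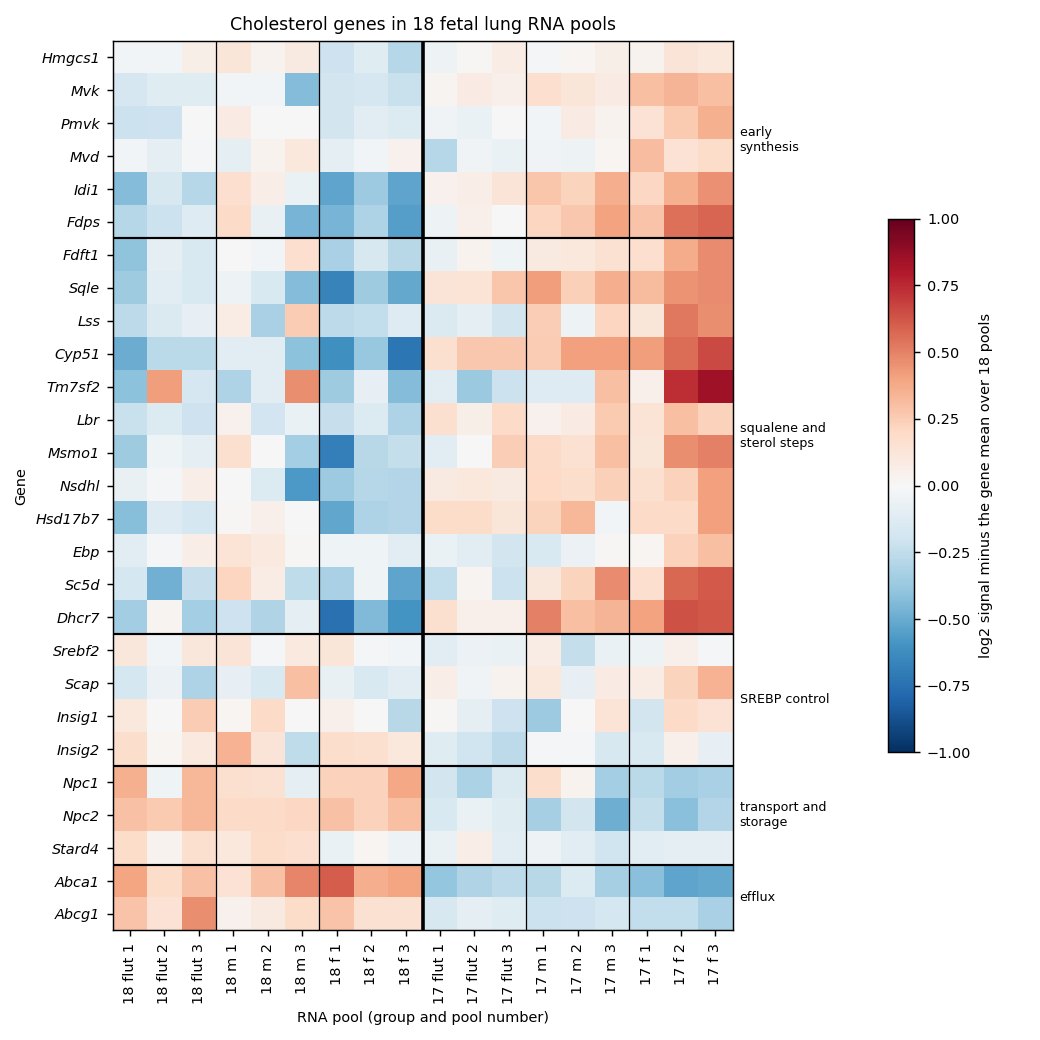
Signal of the 27 measured cholesterol genes (rows, by role) in the 18 RNA pools (columns), as log2 signal minus the mean of that gene over all pools, red above and blue below. The enzymes were mostly blue in 18 f and deepest red in 17 f pools 2 and 3, and the transport and efflux genes showed the opposite arrangement between days.

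Female lungs had less transcript for every measured synthesis enzyme at GD18 than at GD17. All 18 were lower in 18 f than in 17 f, with a median difference of -0.61 and a range of -1.15 to -0.24, while the median over all genes was -0.01. The test was limma's moderated test over all probe sets, and a gene passed at a Benjamini-Hochberg adjusted p under 0.05. By the same test 17.1% of all probe sets were lower at GD18 in females, and 22.5% of genes when each had 1 probe set. All 6 early enzymes passed (median -0.45), as did all 12 enzymes of the squalene and sterol steps (median -0.69).

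The 3 largest differences in females were in the squalene and sterol steps. Dhcr7, which makes cholesterol from 7-dehydrocholesterol in the last step of one branch, had signals of 6.84, 7.15 and 6.99 in 18 f pools, against 7.99, 8.23 and 8.21 in 17 f pools. It was 2.22-fold lower at GD18 (log2 difference -1.15, SE 0.11, limma adjusted p = 6.2e-07). Cyp51, which removes a methyl group from lanosterol, had signals of 7.39, 7.62 and 7.28 in 18 f pools, against 8.42, 8.56 and 8.66 in 17 f pools. Every GD18 pool lay below every GD17 pool for both genes, and Cyp51 was 2.17-fold lower (-1.12, SE 0.10, limma adjusted p = 5.8e-07). Sqle, the squalene epoxidase that inserts the first oxygen of the sterol, had 8.72, 9.03 and 8.87 in 18 f pools, against 9.70, 9.83 and 9.86 in 17 f pools (-0.92, SE 0.10, limma adjusted p = 4e-06). Fdps, which builds farnesyl diphosphate, differed by -0.91 (SE 0.13) and Idi1, which isomerises isopentenyl diphosphate, by -0.81 (SE 0.09), both with separate pools. Smaller differences were seen for the decarboxylase Mvd and the sterol isomerase Ebp (both -0.24, SE 0.08, limma adjusted p = 0.023 and 0.021).

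Part of the female result rested on the pancreas-rich pools. Without 17 f pools 2 and 3 and 17 m pool 3, all 18 enzyme differences stayed below 0 with a median of -0.47, but 11 of 18 passed, and over all probe sets the calls in both directions dropped to 9221, against 15112 with all pools. This fit left 1 pool in 17 f, which was assumed to vary like the other groups. Dhcr7 (-1.0), Cyp51 (-0.99) and Idi1 (-0.67, limma adjusted p = 0.0013) still passed. The calls of Hmgcs1, Pmvk, Lss, Tm7sf2, Msmo1, Ebp and Sc5d did not.

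Male lungs showed fewer and smaller differences between the days. In 18 m against 17 m, 6 of 18 enzymes were lower, none was higher and 12 did not pass (median -0.22, all genes 0.03), with 12.6% of all probe sets lower. The 6 were Dhcr7 (-0.58), Cyp51 (-0.57), Sqle (-0.56), the sterol dehydrogenase Nsdhl (-0.44), Fdps (-0.41) and the mevalonate kinase Mvk (-0.29), with SE of 0.08 to 0.13. Dhcr7 had signals of 7.38, 7.29 and 7.49 in 18 m pools, against 8.09, 7.89 and 7.93 in 17 m pools. Cyp51 had 7.89, 7.89 and 7.59 in 18 m pools, against 8.26, 8.41 and 8.41 in 17 m pools. The pools of the 2 days were separate for both genes. Without 18 m pool 3 and 18 flut pool 3, which stood apart in liver markers and in the sex check, Mvk and Fdps lost their calls.

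In flutamide-treated males, 5 of 18 enzymes were lower in 18 flut than in 17 flut, none was higher and 13 did not pass (median -0.19, all genes -0.01), with 10.7% of all probe sets lower. These were Cyp51 (-0.58, SE 0.10), the ketosteroid reductase Hsd17b7 (-0.41, SE 0.10), Sqle (-0.38, SE 0.10), Idi1 (-0.37, SE 0.09) and the lamin B receptor Lbr, a sterol reductase (-0.33, SE 0.08). Cyp51 had signals of 7.51, 7.73 and 7.73 in 18 flut pools, against 8.16, 8.27 and 8.27 in 17 flut pools. Dhcr7 differed by -0.31 (SE 0.11, limma adjusted p = 0.055). Sqle and Cyp51 were the only enzymes lower at GD18 in all 3 groups of fetuses. No gene of the set was called in opposite directions in different groups, and 24 of the 27 were called in at least 1 of the 3 comparisons. Over all genes with 1 probe set each, 47.9% were called in at least 1 of the 3, and 0.335% in opposite directions.

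Transcripts for export from lysosome and cell were higher at GD18. Abca1, which passes cholesterol to apolipoprotein A-I, had signals of 11.11, 10.90 and 11.01 in 18 flut pools, 10.86, 11.01 and 11.21 in 18 m pools, and 11.32, 11.08 and 11.11 in 18 f pools. At GD17 it had 10.33, 10.42 and 10.46 in 17 flut pools, 10.44, 10.58 and 10.39 in 17 m pools, and 10.30, 10.19 and 10.21 in 17 f pools. All GD18 pools thus lay above all GD17 pools. The differences were 0.60 in flutamide-treated males, 0.56 in males and 0.94 in females (SE 0.09 each, limma adjusted p = 0.00019, 0.00034 and 1.1e-06). Npc2, which hands cholesterol to Npc1 inside the lysosome, had 13.91, 13.88 and 13.95 in 18 flut pools, 13.81, 13.81 and 13.83 in 18 m pools, and 13.91, 13.85 and 13.92 in 18 f pools. Its GD17 pools lay between 13.13 and 13.55, below every GD18 pool, and the differences were 0.41, 0.53 and 0.59 in flutamide-treated males, males and females (SE 0.07 each).

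The other efflux pump, Abcg1, which loads cholesterol onto HDL, was higher at GD18 by 0.42 in flutamide-treated males, 0.31 in males and 0.47 in females (SE 0.07 each). Npc1, the lysosomal membrane exporter, was higher in flutamide-treated males (0.43, SE 0.12, limma adjusted p = 0.019) and in females (0.59, SE 0.12, limma adjusted p = 0.0012), and its difference was 0.12 in males (95% interval -0.14 to 0.38). The call in flutamide-treated males was lost without the pool of mixed sex and 18 m pool 3 (0.37, limma adjusted p = 0.062), and it was 0.57 (limma adjusted p = 0.0034) without all 6 pools that stood apart, a fit that held 18 flut pool 1 alone. Stard4, a soluble carrier of sterol between membranes, was higher in males (0.28, SE 0.06, limma adjusted p = 0.0045) and did not pass in flutamide-treated males (0.16) or females (0.06). In each of the 3 groups of fetuses, 4 of the 5 measured transport and efflux genes were therefore higher. The share of all probe sets that passed upwards with age was 9.61% in flutamide-treated males, 12.4% in males and 16.5% in females. In each of the 3 groups the 4 calls also stood without the pancreas-rich pools. The mean of the macrophage markers was also higher at GD18. It was 8.70 to 9.0 in GD18 pools and 8.14 to 8.38 in GD17 pools. Of the 5 markers, 2, Csf1r and Lyz2, were higher in every GD18 pool than in every GD17 pool. The larger difference was in Lyz2, at 10.54 to 11.42 in GD18 pools and 8.71 to 9.27 in GD17 pools. Csf1r was at 10.54 to 10.77 and 10.06 to 10.29. For Cd68, Adgre1 and Mrc1 the GD18 and GD17 pools overlapped. The epithelial marker mean was likewise higher in every GD18 pool, as were Sftpb and Sftpc, while Epcam was lower in every one. The part of macrophages and of epithelium in the higher export transcripts and in the lower enzyme transcripts was not tested.

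The genes that govern SREBP showed little. Srebf2, which encodes the factor that drives the pathway, had pool signals of 8.75 to 8.89 in 18 flut, 8.76 to 8.91 in 18 m and 8.75 to 8.90 in 18 f. At GD17 its pools lay at 8.67 to 8.72 in 17 flut, 8.54 to 8.85 in 17 m and 8.73 to 8.83 in 17 f. Its day differences were 0.14 in flutamide-treated males (95% interval -0.02 to 0.31), 0.15 in males (-0.01 to 0.31) and 0.03 in females (-0.13 to 0.20). Scap was lower in 18 f than in 17 f (-0.32, SE 0.11, limma adjusted p = 0.026), a call that did not stand without the pancreas-rich pools (-0.18). Insig1, itself a known SREBP target, did not pass in any comparison. Insig2 did not pass at its brightest probe set, with day differences of 0.30, 0.14 and 0.21 in flutamide-treated males, males and females. A different Insig2 probe set was higher at GD18 in all 3 (0.37, 0.34 and 0.30, limma adjusted p = 0.001, 0.0017 and 0.0025).

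**Figure D2:**
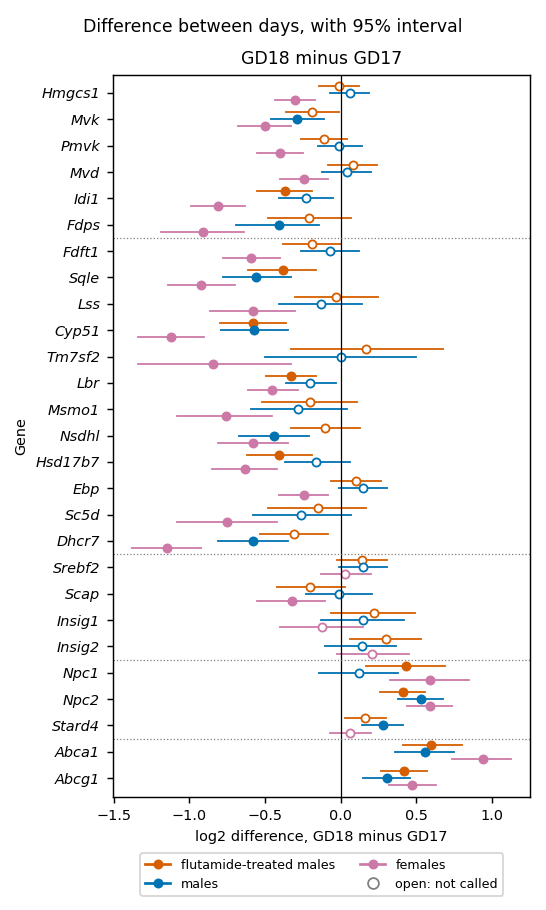
Difference in log2 signal, GD18 minus GD17, for each of the 27 genes (points) with its 95% interval from limma (lines), in flutamide-treated males, males and females. Filled points passed the test. All 18 enzymes lay below 0 in females, and Abca1, Abcg1 and Npc2 lay above 0 in all 3 groups.

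Other genes of cholesterol handling also differed between the days, and mostly upwards. Of 17 measured genes listed for uptake, hydrolysis of esters, carriage and regulation, 10 were higher and 1 lower at GD18 in flutamide-treated males, 11 higher and none lower in males, and 9 higher and none lower in females. Of all genes with 1 probe set each, 13% were higher in flutamide-treated males, 17.7% in males and 17.2% in females. The macrophage marker mean and the lung epithelial marker mean were also higher in every GD18 pool than in every GD17 pool. Of the single markers this held for Csf1r, Lyz2, Sftpb and Sftpc. Epcam was lower in every GD18 pool, and Nkx2-1, Cd68, Adgre1 and Mrc1 overlapped between the days. The part of these cell types in the differences was not tested. The lipoprotein receptor Vldlr was higher by 0.55, 0.71 and 1.00 in flutamide-treated males, males and females (SE 0.09 each), and the endocytic receptor Lrp1 by 0.71, 0.58 and 0.86 (SE 0.11 each). Nceh1, a hydrolase of cholesteryl esters, was higher by 1.15, 1.37 and 1.18 (SE 0.17 each), and the lysosomal lipase Lipa by 0.44, 0.47 and 0.38 (SE 0.08 each). Also higher in all 3 were Mylip, the ubiquitin ligase that degrades lipoprotein receptors, Stard3 and Scp2, which carry sterols, and Srebf1, the lipogenic SREBP gene. Scarb1, the HDL receptor, was higher in flutamide-treated males (0.58) and males (0.33), Gramd1b in flutamide-treated males (0.38) and females (0.47), and Nr1h3, which encodes an LXR, and Cyp27a1, the sterol hydroxylase, in males (0.39 and 0.79). Ggps1, which draws farnesyl diphosphate away from sterols, was the gene lower in flutamide-treated males (-0.18, SE 0.05). None of the 17 passed in a comparison within a day.

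Between the sexes at GD18, Idi1 and Hmgcs1, a pair among the 6 measured early enzymes, were higher in male lungs. Idi1 had signals of 8.99, 8.89 and 8.76 in 18 m pools, against 8.30, 8.46 and 8.30 in 18 f pools. No male pool lay within the range of the female pools. Idi1 was 1.44-fold higher in males (0.52, SE 0.09, limma adjusted p = 0.0062). Hmgcs1, which forms HMG-CoA, had 11.54, 11.45 and 11.51 in 18 m pools, against 11.21, 11.30 and 11.13 in 18 f pools. These pools were also separate, with a 1.22-fold higher signal in males (0.29, SE 0.06, limma adjusted p = 0.026). A second Idi1 probe set was higher in males by 0.61 (SE 0.11, limma adjusted p = 0.013), and a second Hmgcs1 probe set by 0.29 (SE 0.06, limma adjusted p = 0.025).

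The other 16 enzymes did not pass at GD18, although all 18 differences were above 0, with a median of 0.30 against 0.02 for all genes. By the same test, 2 of the 27 genes and 1.1% of all probe sets were higher in 18 m than in 18 f, and 11 of the 27 had an unadjusted p under 0.05 in this direction, against 11.1% of all genes. The nearest to the threshold were Hsd17b7 (0.39, limma adjusted p = 0.058), Dhcr7 (0.40, limma adjusted p = 0.071) and Cyp51 (0.37, limma adjusted p = 0.083). The genes of transport and efflux did not pass, with differences from -0.20 for Npc1 to 0.19 for Stard4.

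Without the 6 pools that stood apart in liver, pancreas or adrenal markers or in the sex check, the Idi1 difference was 0.58. Hmgcs1 was then at 0.28. Of the 6, only 18 m pool 3 belonged to the groups compared. It was the lowest 18 m pool for Idi1, so leaving it out could only raise the Idi1 difference. That check therefore lends the Idi1 difference no support. In a fit on the 2 groups alone neither passed (limma adjusted p = 0.19 for Idi1 and 0.32 for Hmgcs1). The Hmgcs1 call was also lost without 18 m pool 1 (0.27, limma adjusted p = 0.082), 18 f pool 1 (0.29, 0.10) or 18 f pool 3 (0.25, 0.12).

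**Figure D3:**
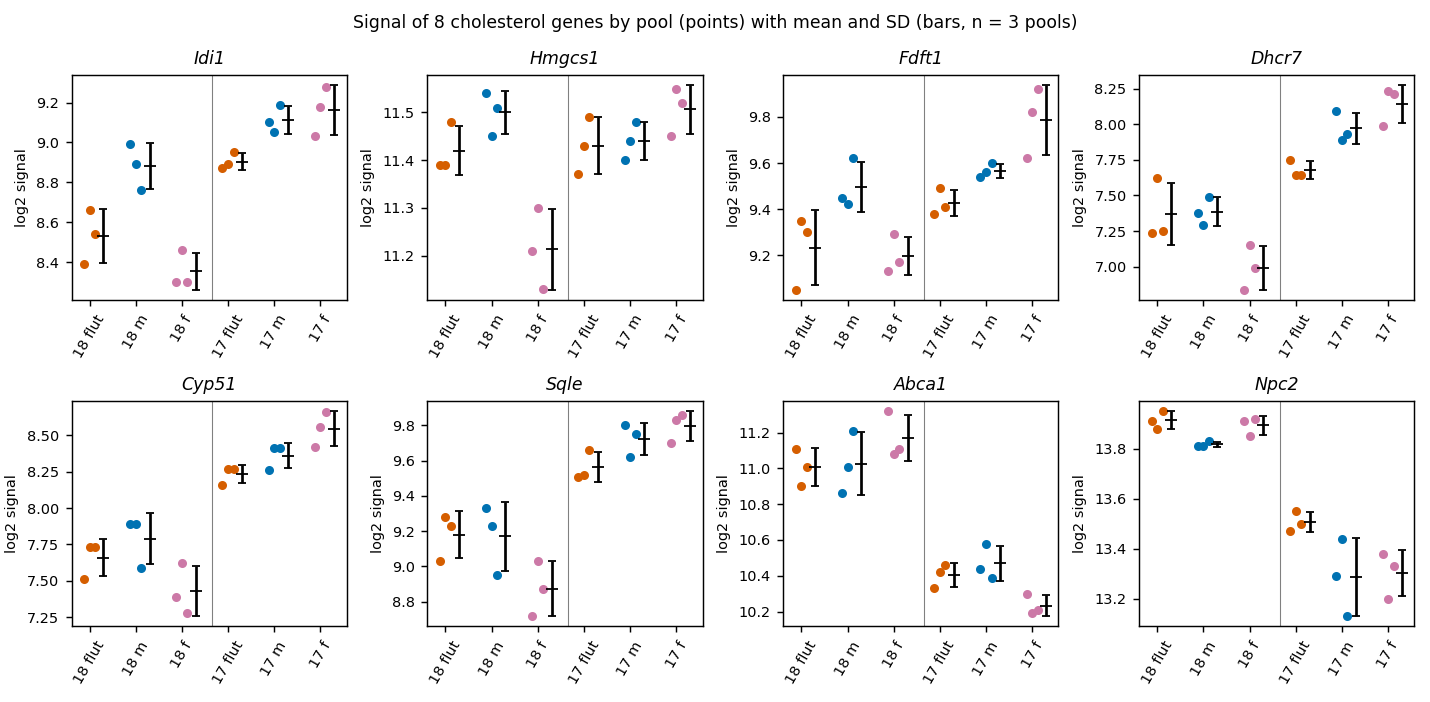
Log2 signal of 8 cholesterol genes in each RNA pool (points) of the 6 groups, with the mean and SD of 3 pools (bars); the vertical scale differs between genes. Idi1 and Hmgcs1 were higher in 18 m than in 18 f with no overlap of pools, and Abca1 and Npc2 were higher in every GD18 pool than in every GD17 pool.

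At GD17 no enzyme passed between the sexes, and Idi1 and Hmgcs1 were close in males and females. Idi1 had 9.10, 9.05 and 9.19 in 17 m pools, against 9.03, 9.18 and 9.28 in 17 f pools. Hmgcs1 had 11.40, 11.44 and 11.48 in 17 m pools, against 11.45, 11.55 and 11.52 in 17 f pools. The pools of both genes overlapped, with differences of -0.05 (95% interval -0.23 to 0.13) and -0.07 (-0.20 to 0.06). All 18 enzyme differences between 17 m and 17 f were below 0 (median -0.18, all genes -0.05), but by limma none of the 27 genes passed, while 4.1% of all probe sets did in either direction. At an unadjusted p under 0.05, 6 of the 27 were lower and 2 higher, against 10.1% of all genes lower and 3.7% higher. Without the 3 pancreas-rich pools the median was -0.03, with 12 enzymes below 0 and 6 above.

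Whether the difference between the sexes depended on the day was tested as an interaction, the male minus female difference at GD18 less that at GD17. It was above 0 for all 18 enzymes (median 0.46, all genes 0.06), and 7 of the 27 genes were called, all upwards, against 2.58% of all probe sets. The early enzymes among them were Idi1 (0.57, SE 0.12, limma adjusted p = 0.0087), Hmgcs1 (0.36, SE 0.09, 0.019) and the phosphomevalonate kinase Pmvk (0.39, SE 0.10, 0.025). The later ones were the squalene synthase Fdft1 (0.52), Dhcr7 (0.57), Cyp51 (0.55) and Ebp (0.39).

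Values in the pools show how the 7 came about. Pmvk had 8.19, 8.10 and 8.10 in 18 m pools, against 7.92, 7.99 and 7.97 in 18 f pools. At GD17 Pmvk had 8.08, 8.19 and 8.14 in 17 m pools, against 8.25, 8.37 and 8.46 in 17 f pools. The order of the sexes thus turned between the days, and the pools were separate on each. Fdft1 turned in the same way, with 9.45, 9.42 and 9.62 in 18 m pools, against 9.13, 9.29 and 9.17 in 18 f pools. Its GD17 signals were 9.54, 9.56 and 9.60 in 17 m pools, against 9.62, 9.82 and 9.92 in 17 f pools. Ebp, whose gene lies on the X chromosome as does Nsdhl, had 8.76, 8.72 and 8.63 in 18 m pools, against 8.58, 8.58 and 8.51 in 18 f pools. Ebp had 8.47, 8.56 and 8.63 in 17 m pools, against 8.64, 8.85 and 8.92 in 17 f pools. These genes were picked by the interaction in the same pools, so the separation of their pools adds no support. Neither Pmvk, Fdft1 nor Ebp passed between the sexes on either day. How many of all genes had separate pools was not counted.

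None of the 7 interactions was called without the 3 pancreas-rich pools, a fit with 2 pools in 17 m and 1 in 17 f. The median over the enzymes was then 0.31 with all 18 above 0, and Idi1 was at 0.48 (limma adjusted p = 0.14), Cyp51 at 0.45, Dhcr7 at 0.40, Fdft1 at 0.37, Hmgcs1 at 0.32, Pmvk at 0.29 and Ebp at 0.27. Idi1 was called without all 6 pools that stood apart (0.54, limma adjusted p = 0.040) and with marker means as covariates (0.57, limma adjusted p = 0.034), where the other 6 were not. Leaving out only 17 f pool 2 or only 17 f pool 3 left 1 call each.

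Flutamide was associated with less Idi1 in males at GD18. Idi1 had signals of 8.39, 8.66 and 8.54 in 18 flut pools, against 8.99, 8.89 and 8.76 in 18 m pools. The groups did not overlap, and Idi1 was 1.27-fold lower with flutamide (-0.35, SE 0.09, limma adjusted p = 0.031). It was the only gene of the 27 to pass. Over all features, 3.21% of probe sets and 3.67% of genes with 1 probe set each were lower in 18 flut. The single call among 27 genes was thus near the share over all genes. The 18 flut pools lay between the 18 m and the 18 f pools in mean, and flutamide-treated males differed from females by 0.18 (95% interval 0.00 to 0.36). The pool of mixed sex was the middle one of the 3. The Idi1 call was lost without 18 flut pool 1 (-0.28, limma adjusted p = 0.14), 18 flut pool 3 (-0.35, 0.084), 18 m pool 1 (-0.29, 0.11) or 18 m pool 2 (-0.34, 0.080). The second Idi1 probe set gave -0.25 (SE 0.11, limma adjusted p = 0.26).

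Hmgcs1 had 11.39, 11.39 and 11.48 in 18 flut pools, against 11.54, 11.45 and 11.51 in 18 m pools, and these overlapped (-0.08, 95% interval -0.21 to 0.05). Fdft1 had 9.05, 9.35 and 9.30 in 18 flut pools, below all the 18 m pools, without passing (-0.26, SE 0.09, limma adjusted p = 0.13). The median over the 18 enzymes was -0.10, with 15 below 0, against a median of 0.00 over all genes. Abcg1 was at 0.19 (SE 0.07, limma adjusted p = 0.18) and Abca1 at -0.02 (SE 0.09).

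At GD17 no gene of the set passed between 17 flut and 17 m by limma, while 3.55% of all probe sets did in either direction. At an unadjusted p under 0.05, 4 enzymes were lower and Npc2 was higher (0.22, SE 0.07, limma adjusted p = 0.10). The shares of all genes at this level were 5.35% lower and 13.4% higher. The 4 were Sc5d, a sterol desaturase (-0.42), Fdps (-0.30), Dhcr7 (-0.29) and Idi1 (-0.21). For each of these 4 the 17 flut pools lay below all 17 m pools. They were picked by a small p in the same comparison, so this separation adds no support. The share of all genes with separate pools was not counted. Idi1 had 8.87, 8.89 and 8.95 in 17 flut pools, against 9.10, 9.05 and 9.19 in 17 m pools. Hmgcs1 had 11.37, 11.43 and 11.49 in 17 flut pools, against 11.40, 11.44 and 11.48 in 17 m pools, and overlapped throughout. Of the 18 enzymes, 17 were below 0 (median -0.13, all genes 0.04). The flutamide difference was not shown to change between the days. The interaction called none of the 27 genes by limma, against 0.364% of all probe sets in either direction, and 1 gene, Nsdhl, had an unadjusted p under 0.05 (0.34, SE 0.15), against 2.22% of all genes higher and 8.63% lower.

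Flutamide-treated males were also set against vehicle females. At GD17, 8 of the 18 enzymes were lower in 17 flut than in 17 f, against 1.73% of all probe sets, with a median of -0.31 and all 18 below 0. Sc5d had 7.79, 8.06 and 7.82 in 17 flut pools, against 8.20, 8.61 and 8.65 in 17 f pools (-0.60, SE 0.15, limma adjusted p = 0.042). The lanosterol synthase Lss had 7.51, 7.56 and 7.47 in 17 flut pools, against 7.77, 8.18 and 8.12 in 17 f pools (-0.51, SE 0.13, limma adjusted p = 0.041). In both, 17 f pool 1 lay nearest to the flutamide pools, and 17 f pools 2 and 3 were the pancreas-rich ones.

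The same held for Fdps, with 9.69, 9.79 and 9.73 in 17 flut pools, against 10.02, 10.29 and 10.32 in 17 f pools (-0.48, SE 0.13). Dhcr7 had 7.75, 7.64 and 7.64 in 17 flut pools, against 7.99, 8.23 and 8.21 in 17 f pools (-0.47, SE 0.11). Mvd had 6.94, 7.19 and 7.16 in 17 flut pools, against 7.54, 7.37 and 7.41 in 17 f pools (-0.34, SE 0.08, limma adjusted p = 0.025). Mvd was the exception in that 17 f pool 1 was its highest pool. Fdft1 (-0.36), Ebp (-0.30) and Pmvk (-0.28) were the other 3. Fdft1 had 9.38, 9.49 and 9.41 in 17 flut pools, Ebp had 8.55, 8.51 and 8.44, and Pmvk had 8.07, 8.04 and 8.11, in each case below all 17 f pools. None of the 8 was called without the pancreas-rich pools, when the median was -0.18 and the calls over all probe sets dropped to 17, against 1977 with all pools. Mvd was then at -0.44 (limma adjusted p = 0.25), further from 0 than with all pools, and the other 7 lay between -0.31 for Sc5d and Dhcr7 and -0.14 for Ebp. None was called either without 17 f pool 2 alone, without 17 f pool 3 alone, or without any single 17 flut pool.

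At GD18 no gene of the set passed between 18 flut and 18 f by limma, while 0.278% of all probe sets did in either direction. At an unadjusted p under 0.05, 6 genes of the set were higher and none lower, against 3.95% of all genes higher and 4.19% lower. Among them, Dhcr7 had 7.24, 7.62 and 7.25 in 18 flut pools, against 6.84, 7.15 and 6.99 in 18 f pools (0.38, SE 0.11, limma adjusted p = 0.17). Hmgcs1 lay at 0.21 (SE 0.06, limma adjusted p = 0.19). The groups were separate for both genes. These comparisons share the 18 f pools with those between the sexes and the 18 flut pools with those of flutamide.

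At GD18 the pools of Sc5d, Lss, Fdps and Mvd overlapped between the groups, apart from Fdps in 18 flut against 18 f. Sc5d had 7.86, 7.55 and 7.80 in 18 flut pools, 8.25, 8.11 and 7.78 in 18 m pools, and 7.71, 7.99 and 7.51 in 18 f pools. Lss had 7.39, 7.51 and 7.57 in 18 flut pools, 7.73, 7.33 and 7.91 in 18 m pools, and 7.39, 7.41 and 7.52 in 18 f pools. Fdps had 9.45, 9.52 and 9.61 in 18 flut pools, 9.93, 9.66 and 9.27 in 18 m pools, and 9.27, 9.43 and 9.19 in 18 f pools. In Sc5d and Fdps, but not in Lss, the lowest 18 m pool was pool 3, the one highest in liver markers. Mvd had 7.20, 7.13 and 7.22 in 18 flut pools, 7.14, 7.26 and 7.33 in 18 m pools, and 7.13, 7.20 and 7.27 in 18 f pools. Pmvk had 7.89, 7.90 and 8.11 and Ebp 8.51, 8.61 and 8.69 in 18 flut pools. The 17 m pools of the first 4 lay at 8.15, 8.26 and 8.51 for Sc5d, 7.90, 7.60 and 7.87 for Lss, 9.95, 10.01 and 10.14 for Fdps, and 7.19, 7.18 and 7.25 for Mvd.

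**Figure D4:**
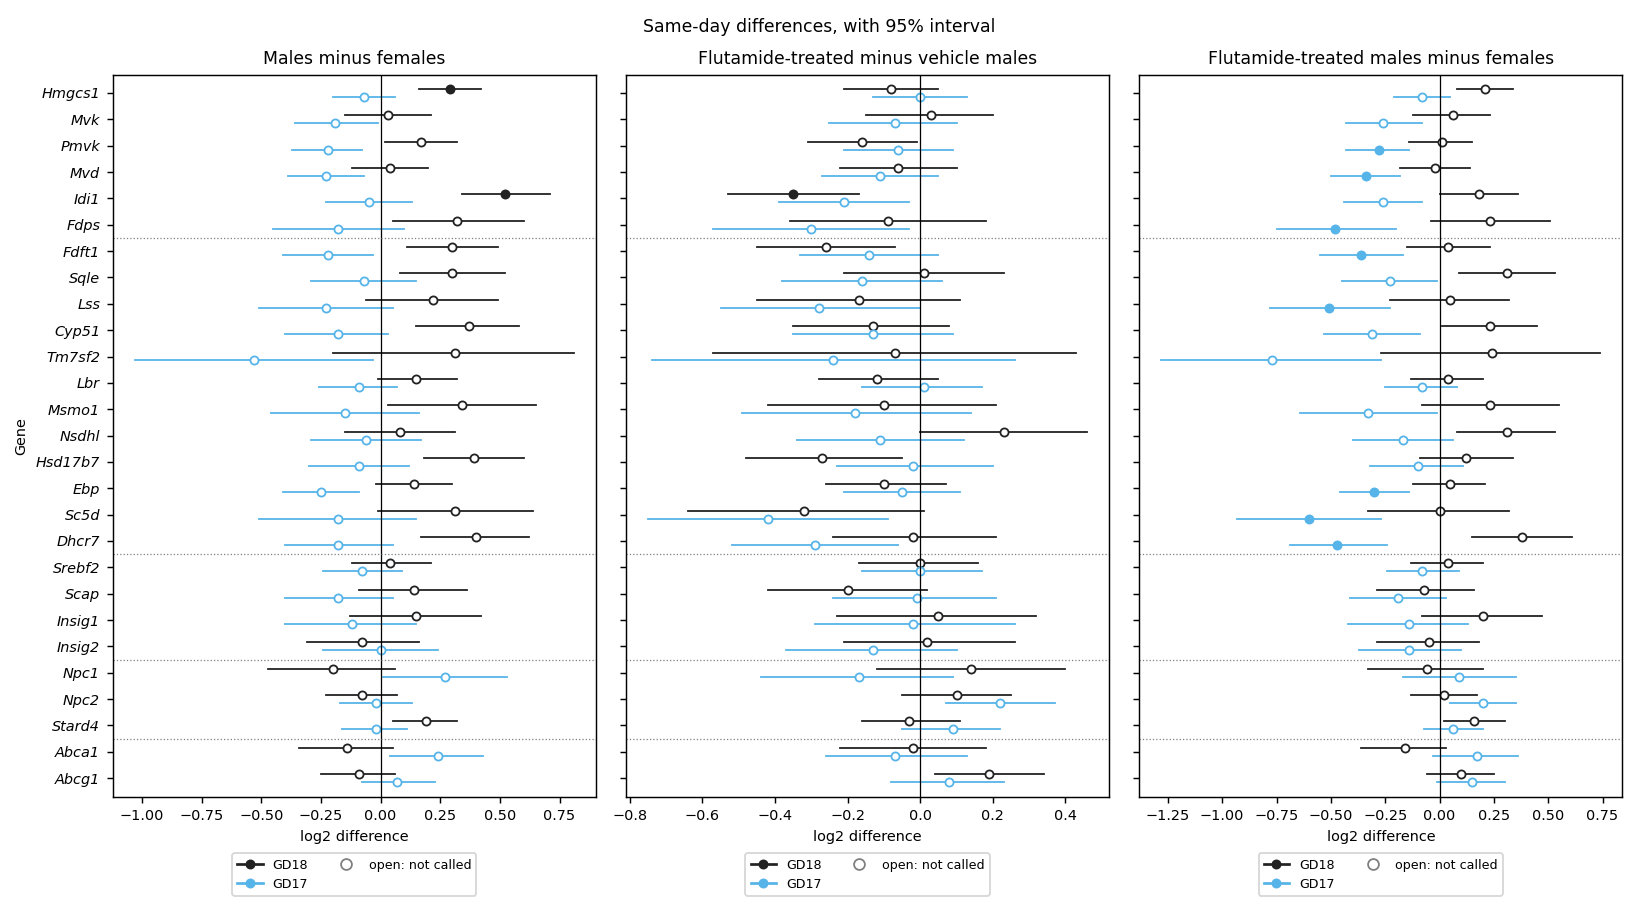
Difference in log2 signal within a day for each of the 27 genes (points) with its 95% interval from limma (lines), for males minus females, flutamide-treated minus vehicle males, and flutamide-treated males minus females, at GD18 (black) and GD17 (blue). Filled points passed the test, namely Idi1 and Hmgcs1 between the sexes at GD18, Idi1 with flutamide at GD18, and 8 enzymes between 17 flut and 17 f.

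Other probe sets of a gene did not always follow the brightest. A dim Hmgcs1 probe set (mean signal 4.56) was lower in 17 flut than in 17 m by -0.55 (SE 0.10, limma adjusted p = 0.01), where the brightest differed by less than 0.01. A dim Lss probe set (mean 5.67) was higher at GD18 by 0.60 in flutamide-treated males and 0.50 in males, where the brightest gave -0.03 and -0.13. A Fdps probe set with a mean of 3.45 was higher in 18 m than in 17 m by 0.26, opposite to the brightest. For Idi1, Cyp51, Hsd17b7, Fdft1 and Mvk, every further probe set that passed in a comparison between days went the same way as the brightest one.

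**Figure D5:**
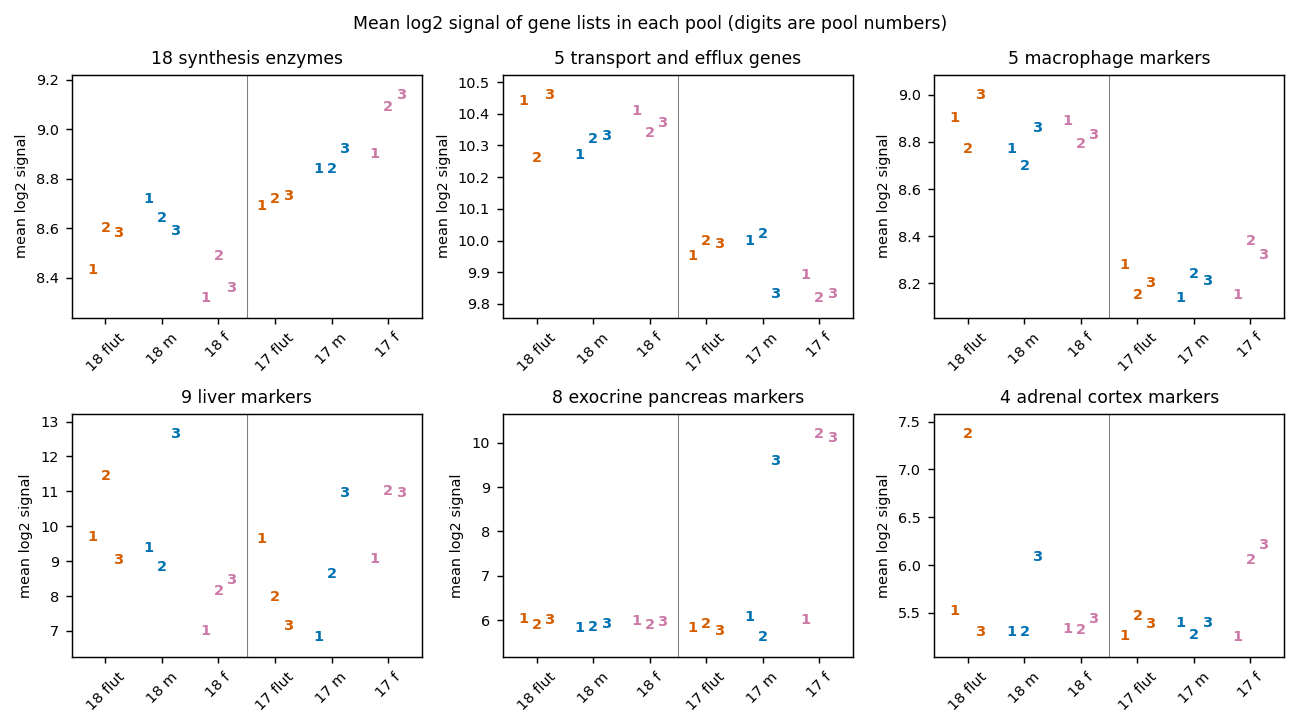
Mean log2 signal in each pool (digits are pool numbers) of the 18 synthesis enzymes, the 5 transport and efflux genes, and the markers of macrophages, liver, exocrine pancreas and adrenal cortex. The enzyme mean was highest in 17 f pools 2 and 3, which were also highest for pancreas markers, and the macrophage mean was higher in every GD18 pool than in every GD17 pool.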

How the data were processed

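Labelled RNA of 18 pools was hybridised to Affymetrix MOE430 2.0 arrays, and images were read with GCOS 1.4. The authors normalised the arrays by RMA and used limma, whose version is not given in the sources used here. The deposited intensity values are on a linear scale (6.61 to 30228), so log2 was taken here. Array number limits the precision. After 64 control probe sets were left out, limma 3.58.1 (R 4.3.3) was fitted to 45037 probe sets with a mean for each of 6 groups (12 residual degrees of freedom), with no filter on low values and Benjamini-Hochberg adjustment within each of 11 comparisons. Genes were named from the 2016 platform annotation (34945 probe sets with 1 symbol, 932 with several, 9160 with none). The labels give no array batch. The set of genes, the pathway list and the markers were chosen with earlier results of these data known. Pool values were given for Idi1, Hmgcs1 and each gene called within a day, and for Cyp51, Sqle, Abca1 and Npc2, chosen after their values were seen. Genes called only between days were named by smallest p. Where the pools of a gene picked by its p are called separate, this adds no support to its difference. The fit was tested on simulated data. Alternatives covered normalisation, filters, variance, thresholds, probe sets, blocks, covariates and pools left out. Pool numbers were not used as pairs in the main fit, and the labels do not say whether they pair the pools.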

Additional observations from a re-analysis of the deposited data

Results flagged for a closer look

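The male minus female difference was not the same at GD18 as at GD17 for 7 synthesis enzymes, by the interaction term in limma. Idi1 had a difference between days of 0.57 (SE 0.12, adjusted p = 0.0087), Hmgcs1 of 0.36 (SE 0.09, adjusted p = 0.019) and Pmvk of 0.39 (SE 0.10, adjusted p = 0.025). Among the later enzymes it was 0.52 for Fdft1 (SE 0.13, adjusted p = 0.02), 0.57 for Dhcr7 (SE 0.15, adjusted p = 0.033), 0.55 for Cyp51 (SE 0.15, adjusted p = 0.033) and 0.39 for Ebp (SE 0.11, adjusted p = 0.039). With 17 f pools 2 and 3 and 17 m pool 3 left out, a fit with 1 pool in 17 f, none of the 7 was called, and the values were 0.48 for Idi1, 0.45 for Cyp51, 0.40 for Dhcr7, 0.37 for Fdft1, 0.32 for Hmgcs1, 0.29 for Pmvk and 0.27 for Ebp. Idi1 was called without all 6 pools that stood apart (0.54, adjusted p = 0.040) and with marker means as covariates (0.57, adjusted p = 0.034).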

How the results depend on the processing

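The counts of called genes (main values: 23 for 18 f minus 17 f, 10 for 18 m minus 17 m, 9 for 18 flut minus 17 flut, 7 for the sex by day interaction, 8 for 17 flut minus 17 f, 2 for 18 m minus 18 f, 1 for 18 flut minus 18 m and 0 for the other 4 comparisons) depended on pools and settings. For 17 flut minus 17 f the count was 2 with a further quantile normalization, 2 with cyclic loess, 15 with array weights, and 0 with an indicator for the 3 pancreas-rich GD17 pools, without these pools, without all 6 suspect pools, or with marker means as covariates. For the sex by day interaction it was 15 with array weights, 4 with only the groups compared, 4 with the indicator, 11 without 18 m pool 3 and 18 flut pool 3, 0 without the 3 GD17 pools, 1 without the 6 pools and 1 with the covariates. For 18 m minus 18 f it was 1 with cyclic loess, 5 with dim probe sets left out, 8 with array weights, 0 with only the groups compared, 6 at an adjusted p under 0.1, 5 without 18 m pool 3 and 18 flut pool 3, 5 without the 6 pools and 1 with the covariates. For 18 flut minus 18 m it was 0 with the further quantile normalization, with cyclic loess or with only the groups compared, and 2 with array weights. For 17 m minus 17 f it was 1 with arrays centred on medians, with dim probe sets left out or with array weights, and 2 at an adjusted p under 0.1 or without 18 m pool 3 and 18 flut pool 3. For 17 flut minus 17 m it was 1 with trended robust variance, with any probe set of the gene, or without the 6 pools. Array weights gave 1 for 18 flut minus 18 f and 14 for 18 flut minus 17 flut, only the groups compared gave 6 for 18 m minus 17 m, and leaving out the 3 GD17 pools gave 15 for 18 f minus 17 f. Leaving out these 3 pools or the 6 pools, and the covariates, were chosen after seeing the data. Apart from the settings' own changes in pools or tests, the cause was not tested.

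Leaving out 1 pool at a time gave 0 to 8 calls for 17 flut minus 17 f (0 without any single 17 flut pool, 17 f pool 2 or 17 f pool 3), 1 to 11 for the sex by day interaction (1 without 17 f pool 2 or 3, 2 without 18 f pool 1, 3 without 18 f pool 3 or 18 m pool 1, 4 without 17 m pool 1, 11 without 18 m pool 3), 1 to 6 for 18 m minus 18 f (1 without 18 m pool 1, 18 f pool 1 or 18 f pool 3, 6 without 18 m pool 3) and 0 to 1 for 18 flut minus 18 m (0 without 18 flut pool 1, 18 flut pool 3, 18 m pool 1 or 18 m pool 2). It gave 0 to 1 for 17 flut minus 17 m (1 without 17 m pool 2), 0 to 2 for 17 m minus 17 f (1 without 17 m pool 3, 2 without 17 f pool 1), 20 to 22 for 18 f minus 17 f, 9 to 12 for 18 m minus 17 m, 6 to 11 for 18 flut minus 17 flut (6 without 18 flut pool 1), and 0 to 0 for 18 flut minus 18 f and for the flutamide by day interaction. With the replicate number as a block, 17 flut minus 17 f gave 5 calls. Same-numbered pools had correlations of -0.32 to 0.37, over 0.1 in 8 of 27 pairs. With 3 pools per group these values do not show a pairing and cannot exclude one. Of the values of single genes under all alternatives, 1348 kept direction and side of the threshold, 232 lost and 9 gained a call, and 19 changed sign. These 19 were of 3 differences that lay within 0.05 of 0 and passed in neither setting. For Hmgcs1, 17 flut minus 17 m (0.00), the value became 0.01 with the further quantile normalization or cyclic loess, 0.00 with array weights, 0.02 with the indicator, without the 3 or the 6 pools or with the covariates, and 0.02 to 0.03 without 17 m pool 3 or 17 flut pool 1 (-0.03 to 0.03 over all single pools). For Hmgcs1, 18 flut minus 17 flut (-0.01), it became 0.05 with cyclic loess, 0.00 with the covariates, and 0.00 to 0.02 without 18 flut pool 1, 18 flut pool 2 or 17 flut pool 3 (-0.04 to 0.02 over all single pools). For Idi1, 17 m minus 17 f (-0.05), it became 0.01 with the indicator or without 17 f pool 3 (-0.11 to 0.01 over all single pools), 0.05 without the 3 or the 6 pools, and 0.03 with the covariates.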
